A study of Mus musculus with 24 samples.

Results

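The genes described here are 9 of the 23420 genes in each of 4 tables of mouse lung RNA-Seq: the simple keratins Krt7, Krt8, Krt18 and Krt19, the claudin Cldn4, and Sfn, Areg, Sgpp2 and Vnn3. They were taken by gene symbol, from a list selected on the mutant over control differences of these same lungs. Their fold changes are therefore a description, and no test or call is given for them. All 9 were listed in all 4 tables and passed the filter on low values in each.

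RNA came from the left lung lobe of 24 mice in 8 groups of 3, and the depth was 16178031 to 21546673 reads on genes in 23 lungs and 13823693 in the P5 Ror2 control replicate 1, whose values were missing on several chromosomes. Vangl2 mutants were Sox9Cre; Vangl2f/f and Ror2 mutants Sox9Cre; Ror2f/f, each collected at postnatal day 2 (P2) and day 5 (P5). Each of the 4 mutant groups had its own controls, titled Control(Vangl1/2) or Control(Ror2) with the genotype entered as WT, and the labels do not say whether controls carried Sox9Cre or a floxed allele. Cre from the Sox9 locus acts in the distal lung epithelium, whereas the whole lobe was sequenced with no cell type sorted. In RNA from a whole lobe, more cells of one type and more RNA per cell cannot be told apart.

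Simple epithelia build their intermediate filaments from a type II keratin (Krt7 or Krt8) paired with a type I keratin (Krt18 or Krt19), and these filaments anchor to desmosomes. CLDN4 is a tight junction claudin, SFN is 14-3-3 sigma, an epithelial adaptor protein induced by p53, and AREG is amphiregulin, a shed ligand of the EGF receptor. SGPP2 removes the phosphate from sphingosine-1-phosphate, and VNN3 belongs to the vanins, which cleave pantetheine. In the lung, KRT8, CLDN4 and SFN are known from alveolar epithelial cells in transition between type II and type I identity after injury, while the simple keratins are also made by airway and mesothelial cells.

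Krt7 (chr15:101411043-101430313, plus strand), Krt8 (chr15:101996698-102004482, minus strand) and Krt18 (chr15:102028180-102032027, plus strand) lie in 1 region of chromosome 15 in GRCm38 (mm10), and Krt8 and Krt18 start on opposite strands with 23.7 kb between the genes. Krt19 is on the other keratin chromosome (chr11:100140810-100148665, minus strand). The remaining genes are dispersed, with Sgpp2 at chr1:78310345-78420289, Sfn at chr4:133600556-133602168, Areg at chr5:91139599-91148432, Cldn4 at chr5:134945119-134946934 and Vnn3 at chr10:23851462-23869843. Cldn4 and Sfn each have 1 exon. Sgpp2 overlaps Farsb on the other strand, and whether the authors' counting used strand is not given in the sources used here, so reads where both overlap may belong to either gene.

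Promoters are shown for Areg and Cldn4, which held the rarer motif matches, and for the filament partners Krt8 and Krt18, whose levels varied together within groups (r = 0.69, 24 lungs). RefSeq (GRCm38.p6) matched 8 of the 9 by symbol, not Krt19, and the 250 bases before each start were searched on both strands for AP-1 (TGANTCA), CRE (TGACGTCA), STAT (TTCNNNGAA), TEAD (ACATTCC), the NF-kB motif, the TATA box (TATAAA) and the GC box (GGGCGG). Of the 8 sequences, 1 held an AP-1 match (6.75% of all 32851 promoters did), 1 a CRE match (1.55%), 1 a TATA match (12.4%), 4 a GC box (32.7%), and none a STAT (7.02%), TEAD (3.25%) or NF-kB match (1.41%). Matches are printed in capitals for Areg (chr5:91139349-91139598, plus strand), which held a CRE, a GC box and a TATA box, and Cldn4 (chr5:134946935-134947184, minus strand), which held 2 AP-1 matches and, on the other strand, a GC box. The partner genes Krt8 (chr15:102004343-102004592, minus strand) and Krt18 (chr15:102027966-102028215, plus strand) held no match to any of these motifs. The starts used are those of RefSeq, and both of these windows lie partly within the gene bounds given above. The Krt7 window (chr15:101412153-101412402) lies wholly within them. A match describes letters in this window and says nothing of binding.
Areg: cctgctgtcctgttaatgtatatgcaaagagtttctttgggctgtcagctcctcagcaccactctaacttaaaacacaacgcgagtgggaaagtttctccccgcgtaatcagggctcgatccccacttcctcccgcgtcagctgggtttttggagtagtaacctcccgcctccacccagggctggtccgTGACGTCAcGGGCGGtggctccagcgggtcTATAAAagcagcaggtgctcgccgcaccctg
Cldn4: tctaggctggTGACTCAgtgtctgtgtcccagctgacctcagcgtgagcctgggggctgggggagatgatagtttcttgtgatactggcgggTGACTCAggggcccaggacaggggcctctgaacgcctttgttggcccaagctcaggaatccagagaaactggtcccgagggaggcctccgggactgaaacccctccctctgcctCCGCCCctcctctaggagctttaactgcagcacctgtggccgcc
Krt8: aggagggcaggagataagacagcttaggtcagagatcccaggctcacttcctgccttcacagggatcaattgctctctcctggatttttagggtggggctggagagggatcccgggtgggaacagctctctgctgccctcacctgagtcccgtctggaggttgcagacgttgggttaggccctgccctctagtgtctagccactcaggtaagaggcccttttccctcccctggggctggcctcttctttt
Krt18: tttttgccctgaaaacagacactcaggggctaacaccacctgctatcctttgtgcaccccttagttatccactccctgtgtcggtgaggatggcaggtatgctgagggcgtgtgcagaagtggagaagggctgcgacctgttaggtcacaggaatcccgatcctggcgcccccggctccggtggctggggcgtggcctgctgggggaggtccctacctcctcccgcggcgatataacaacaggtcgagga

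The conditional alleles were checked first. In the Vangl2 comparisons, Vangl2 itself was at 277 ± 26.7 normalized counts (SD, n = 3) in the P2 controls against 213 ± 35.3 in the P2 mutants, and at 325 ± 39.3 and 161 ± 11.7 at P5, with every mutant lung below every control lung at both ages. Ror2 in the Ror2 comparisons was at 517 ± 65.1 and 398 ± 70.8 at P2, and at 497 ± 118 and 441 ± 79.7 at P5, and the lungs overlapped at both ages. None of these 4 differences passed the test (limma, adjusted p = 0.24, 0.060, 0.25 and 0.69). The gene not targeted overlapped between groups in every comparison. Ror2 was at 525 ± 74.4 and 388 ± 138 in P5 Vangl2 controls and mutants, a log2 fold change of -0.48 ± 0.25 (SE). In P2 and P5 Ror2 mutants its fold changes were -0.38 ± 0.16 and -0.16 ± 0.20. Vangl2 was at -0.21 ± 0.14 and -0.28 ± 0.22 in P2 and P5 Ror2 mutants. In the P5 Ror2 control replicate 1, every gene above 50 normalized counts in the other controls was at 0 on chromosomes 6 to 9 and X, and so were 71.8% on chromosome 5. That lung was therefore left out for genes of chromosomes 5 to 9 and X, and Cldn4 and Areg have 2 control lungs in that comparison.

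Levels are compared between genes per kilobase of the longest protein-coding transcript. In the control lungs of all 4 tables the 4 keratins stood above the other 5 genes. Among P2 Vangl2 controls, Krt19 was highest at 1437 normalized counts per kb, followed by Krt7 at 1278, Krt8 at 1062 and Krt18 at 1043. Krt8 and Krt18, the filament partners, overlapped in their ranges over lungs in this group and in the P5 Vangl2 and P2 and P5 Ror2 controls. Then came Cldn4 at 192, Sfn at 149, Sgpp2 at 137 and Vnn3 at 134 per kb, each overlapping its neighbour in this order. Areg was lowest at 43.5 per kb. In both P5 tables Vnn3 took the lowest place, with 54.6 per kb in Vangl2 controls (Areg 68.7) and 31.7 in Ror2 controls (Areg 48.9), and its lungs overlapped those of the next gene in the Vangl2 table only.

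All 9 genes were higher in every P2 Vangl2 mutant lung than in any of its controls. The median log2 fold change over the 9 was 1.09, against 0.00 over all 17448 genes tested. In that comparison 14.6% of all genes had every mutant lung above every control lung. Over all genes the limma fit called 3.59% (1.50% higher and 2.09% lower). Since these contrasts chose the 9 genes, nothing is read from the counts. At P5 in Vangl2 mutants the 9 fold changes were again all above 0, with a median of 0.67 against 0.00 for all genes. There 4 genes (Krt18, Krt19, Cldn4 and Sgpp2) did not overlap between groups, against 13.2% of all genes, and 0.563% of all genes were called (0.534% higher and 0.0287% lower).

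**Figure D1:**
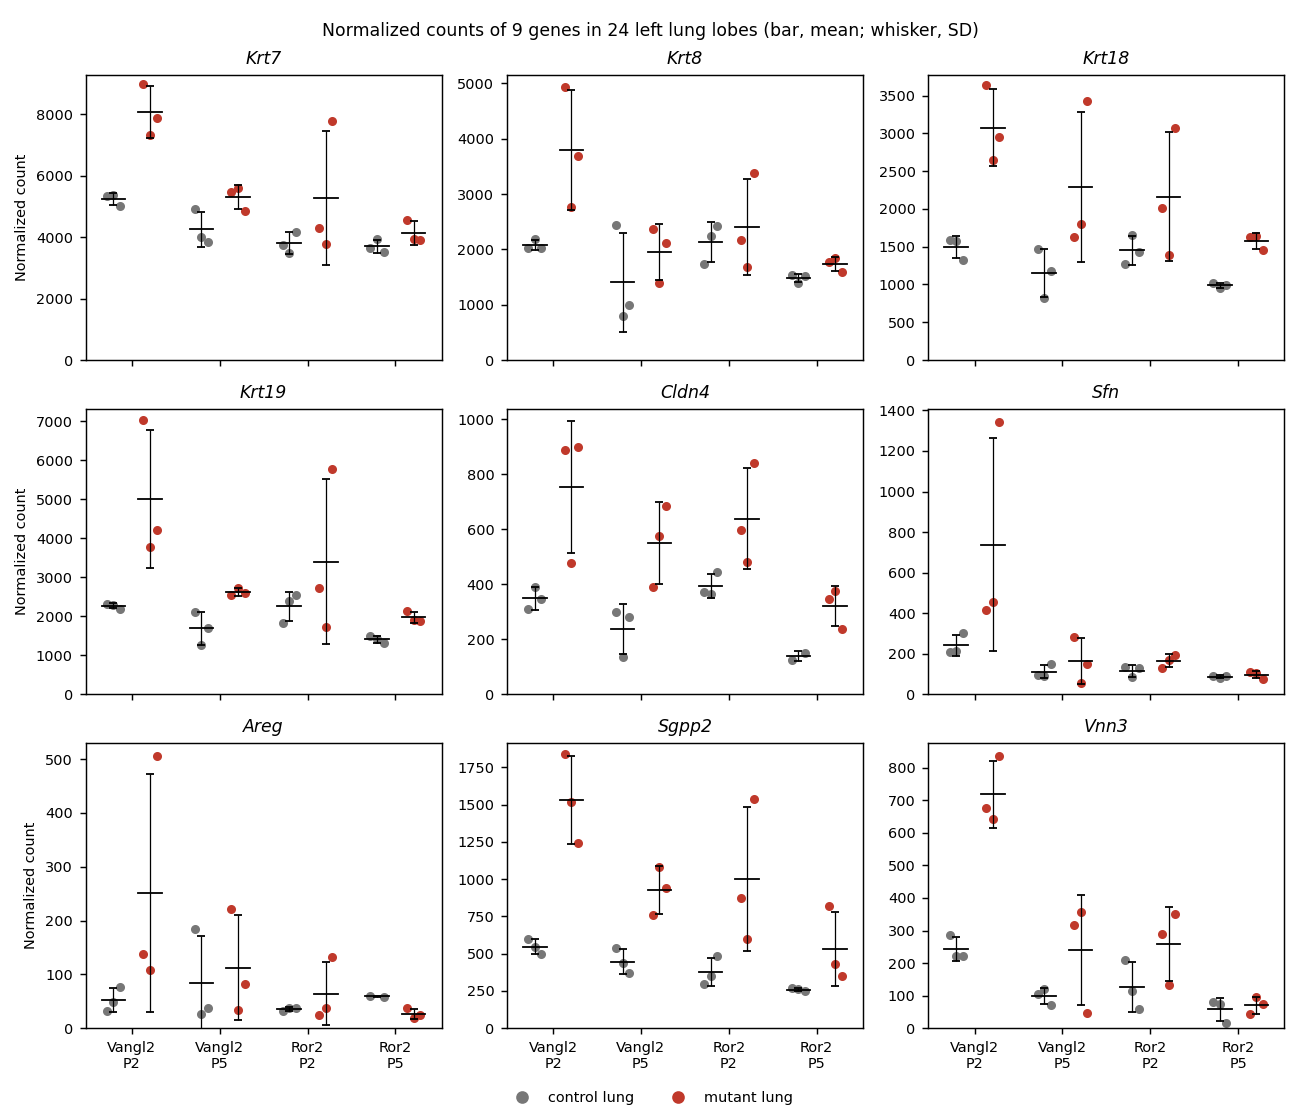
Normalized counts (y axis, from 0) of the 9 genes in each left lung lobe, by comparison (x axis). Points are lungs, bars are group means and whiskers the SD (drawn down to 0), and in P2 Vangl2 mutants every point lies above all 3 controls for every gene.

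The Ror2 mutants gave smaller medians. At P2 all 9 were above 0 with a median of 0.50 (all genes -0.01), but only Cldn4 and Sgpp2 had every mutant lung above every control lung, against 13.4% of all genes. No gene of 17541 was called at P2 (0%) by limma or by edgeR on recovered reads, with 3380 and 3344 genes at an unadjusted p under 0.05. At P5, 8 of the 9 were above 0 and Areg below, with a median of 0.49 against 0.00. Every mutant lung was above every control lung for Krt8, Krt18, Krt19, Cldn4 and Sgpp2 (15.6% of all genes) and below for Areg (14.3%). Of all genes 0.128% were called (0.0640% in each direction).

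**Figure D2:**
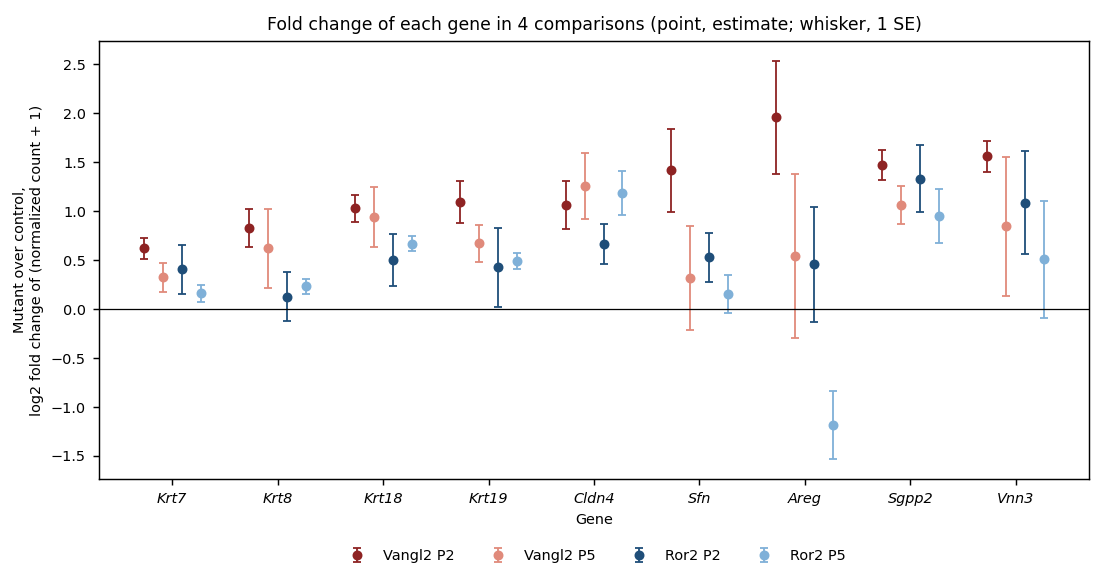
Log2 fold change, mutant over control, of log2(normalized count + 1) for each gene (x axis) in 4 comparisons, with whiskers of 1 SE. Sgpp2 and Cldn4 lie well above 0 in all 4, and Areg runs from 1.96 in P2 Vangl2 mutants to -1.19 in P5 Ror2 mutants.

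Krt8 encodes the type II keratin of simple epithelia. In the P2 Vangl2 comparison its normalized counts were 2023, 2192 and 2026 in the controls and 4938, 2765 and 3684 in the mutants, a log2 fold change of 0.83 ± 0.19 (SE). At P5 the controls held 2432, 788 and 998 and the mutants 2362, 1384 and 2120.4, or 0.62 ± 0.40. Control replicate 1 was the highest of these 6 lungs, and without it the P5 fold change was 1.10. The P2 Ror2 controls had 1729.6, 2244 and 2423 and the mutants 2166, 1675 and 3375, which overlapped (0.13 ± 0.25), and the difference was -0.15 without mutant replicate 3 and also changed sign without control replicate 1. In the P5 Ror2 comparison 1528, 1392 and 1515 in controls stood against 1769.6, 1846 and 1599 in mutants (0.23 ± 0.08), a small difference with no overlap.

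Krt18 encodes the type I partner of KRT8 and gave larger differences than Krt8 in each of the 4 comparisons. Its P2 Vangl2 controls were at 1591, 1576 and 1329 and the mutants at 3637, 2643 and 2947 normalized counts (log2 fold change 1.03 ± 0.14), with no overlap. At P5 the values were 1465, 828 and 1175 against 1624, 1806 and 3429 (0.94 ± 0.31), where mutant replicate 3 was far above the other mutants and the fold change without it was 0.61. P2 Ror2 lungs overlapped, with 1269.6, 1655 and 1434 in controls and 2017, 1385 and 3073 in mutants (0.50 ± 0.27). At P5 the Ror2 groups were tight and apart, at 1025, 954 and 987 and 1631, 1636 and 1454 (0.67 ± 0.07), the smallest SE of the 9 genes in any comparison.

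Krt7, the other type II keratin, had the smallest P2 Vangl2 difference of the 9 genes. P2 Vangl2 controls had 5323, 5369.8 and 5005 and mutants 8993, 7328 and 7878 normalized counts (0.62 ± 0.10). The P5 values of 4910.1, 4001 and 3847 and 5456, 5584 and 4849 overlapped by 1 lung on each side (0.32 ± 0.15). In the Ror2 tables the controls were at 3758, 3470.5 and 4175 at P2 and 3657, 3925 and 3506 at P5. The mutants there were at 4306, 3768 and 7779.6 and 4568, 3931 and 3903, giving 0.40 ± 0.25 and 0.16 ± 0.08, with overlap at both ages.

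Krt19, a type I keratin without a tail domain, had closely grouped P2 Vangl2 controls at 2308, 2295 and 2191, and mutants at 7039.9, 3784 and 4222 (1.09 ± 0.21). Mutant replicate 1 was the highest, and the fold change without it was 0.82. At P5 controls of 2101, 1258 and 1697 and mutants of 2545, 2735 and 2593 did not overlap (0.67 ± 0.19). P2 Ror2 mutants ranged widely, at 2723, 1711 and 5774 against 1831, 2386 and 2551 (0.42 ± 0.40), and without mutant replicate 3 the difference was -0.05. The P5 Ror2 groups were again apart, at 1493, 1407 and 1308 and 2139, 1898 and 1879 (0.49 ± 0.08).

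Cldn4, which seals the space between epithelial cells, was higher in every mutant lung than in every control lung in all 4 comparisons. P2 Vangl2 lungs had 309, 391 and 345 in controls and 889, 477 and 898 in mutants (1.06 ± 0.25). P5 Vangl2 lungs had 297, 134 and 280.1 and 391, 576 and 684 (1.26 ± 0.34). At P2 the Ror2 controls were at 372, 365 and 443 and the mutants at 597, 479.8 and 839 (0.66 ± 0.20). The 2 usable P5 Ror2 controls were at 126 and 151 and the mutants at 347, 375 and 239 (1.19 ± 0.22), so the mean was 2.32 times that of the controls.

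Sgpp2, the phosphatase, was the other gene without overlap in all 4 comparisons. Its P2 Vangl2 values were 597, 543 and 500.0 in controls and 1837, 1515 and 1243 in mutants (1.47 ± 0.15), and its P5 values 536, 437 and 367 and 762, 1083 and 941 (1.06 ± 0.19). In the Ror2 tables it was at 295, 352 and 483 in P2 controls and 871, 597 and 1536 in P2 mutants (1.33 ± 0.34). P5 Ror2 controls lay within 246 to 267 while the mutants spread over 817, 429 and 352 (0.95 ± 0.28). Leaving out any 1 lung gave fold changes from 0.59 to 1.65 across the 4 comparisons.

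Vnn3, a pantetheinase, was at 285, 223 and 221 in P2 Vangl2 controls and 676, 642 and 836 in mutants (1.56 ± 0.16). At P5 the controls were at 104, 121 and 71.5 and the mutants at 318, 356 and 46.5 (0.85 ± 0.71), and mutant replicate 3 lay below every control. Without that lung the fold change was 1.79. P2 Ror2 lungs overlapped, at 210.4, 113 and 57.8 and 289, 132 and 352 (1.09 ± 0.53). In P5 Ror2 lungs, 80.2, 75.3 and 16.9 in controls and 43.3, 95.0 and 73.5 in mutants gave 0.51 ± 0.59, and the difference was -0.21 without control replicate 3.

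Sfn and Areg differed most in single lungs. Sfn was at 206, 212 and 302 in P2 Vangl2 controls and 413, 454 and 1345 in mutants (1.41 ± 0.42), and Areg at 32.7, 49.3 and 76.6 and 139, 108 and 505 (1.96 ± 0.58). Mutant replicate 3 was the highest lung for both, and without it the fold changes were 0.87 and 1.28. At P5 Sfn gave 94.0, 89.3 and 149 and 284, 57.1 and 149 (0.32 ± 0.53) and Areg 185, 27.0 and 38.3 and 222, 33.6 and 81.3 (0.54 ± 0.84). Mutant replicate 1 was then highest for both, Areg was also high in control replicate 1, and without mutant replicate 1 the differences were -0.22 for Sfn and -0.14 for Areg.

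In P2 Ror2 lungs Sfn was at 134, 82.7 and 127 in controls and 131, 166 and 195 in mutants (0.53 ± 0.25). Areg was at 30.9, 37.7 and 38.2 and 23.7, 37.0 and 132 (0.46 ± 0.59), a difference carried by mutant replicate 3, without which it was -0.25. At P5 Sfn overlapped, with 90.5, 78.3 and 88.3 and 109, 103 and 76.3 (0.15 ± 0.20). Areg, with 60.2 and 58.5 in the 2 usable controls and 37.0, 18.8 and 23.9 in the mutants, was the 1 gene lower in every mutant lung (-1.19 ± 0.35), and its mean fell short of the controls' mean, at 0.447 times that level.

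The difference between the mutants was estimated at each age against each table's own controls. At P2 the Vangl2 minus Ror2 difference was above 0 for all 9 genes, from 0.14 ± 0.41 (SE) for Sgpp2 to 1.50 ± 0.91 for Areg, with a median of 0.52. It was 0.70 ± 0.35 for Krt8 and 0.52 ± 0.33 for Krt18, and 3 of the 9 lay within 1 SE of 0. No gene of 17137 was called in this interaction (0%; limma, 788 or 4.60% at an unadjusted p under 0.05). At P5 the median difference was 0.18, and 8 of the 9 lay within 1 SE of 0, while Areg differed by 1.73 ± 1.10. There 2 of 16887 genes were called (0.0118%; 4.73% unadjusted).

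Single lungs stood apart for the group as a whole. In P2 Ror2 mutants, replicate 3 was the highest of the 6 lungs for all 9 genes, its mean deviation from the table mean being 0.99 on the log2 scale against 0.12 and -0.19 in replicates 1 and 2. Without that lung the P2 Ror2 median was 0.21 and 6 of the 9 were above 0. Replicate 3 also had the highest summed pan-epithelial markers of the P2 Ror2 lungs (18219.9 against 11647 to 15678 in the others) and the highest mesothelial markers (9499 against 4658 to 6041). In P5 Vangl2 lungs, control replicate 1 stood above the other controls (0.10 against -0.74 and -0.46), and without it the median of the 9 was 1.10. The P2 Ror2 median was 0.79 without mutant replicate 2, and the P5 Ror2 median was 0.25 without control replicate 3 and 0.26 without mutant replicate 2. The part of these markers in the differences was not tested.

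Cell type markers were summed in each lung beside the 9 genes. Of 5 pan-epithelial markers (Epcam, Cdh1, Nkx2-1, Elf3, Esrp1), the sums in controls and mutants were 13516 to 15646 and 19239 to 21282 in the P2 Vangl2 comparison, and 9756 to 11081 and 13352 to 16553 at P5. In Ror2 lungs they were 11647 to 12386 and 13328 to 18219.9 at P2, and 8264 to 8487 (2 controls) and 9571 to 13465 at P5. Controls and mutants did not overlap in any of the 4 comparisons. The mean log2 difference of these markers was 0.65, 0.64, 0.38 and 0.54 for P2 Vangl2, P5 Vangl2, P2 Ror2 and P5 Ror2 (4 markers, without Cdh1), and Elf3, an epithelial ETS factor, was the highest of them in every comparison (0.74 to 1.43).

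Set against the mean of those markers in each lung, the median of the 9 genes went from 1.09 to 0.44 in P2 Vangl2 mutants, from 0.67 to 0.03 in P5 Vangl2 mutants, from 0.50 to 0.12 in P2 Ror2 mutants and from 0.49 to -0.05 in P5 Ror2 mutants. Without Elf3 among the markers the 4 medians were 0.64, 0.20, 0.21 and 0.09. Relative to the markers, Sgpp2 stayed at 0.82, 0.41, 0.95 and 0.41 in the same order, and Cldn4 at 0.41, 0.62, 0.28 and 0.58. Krt7 was at -0.03, -0.32, 0.02 and -0.38, and Krt8 at 0.18, -0.02, -0.26 and -0.30. Krt18 was at 0.38, 0.30, 0.12 and 0.13, and Krt19 at 0.44, 0.03, 0.04 and -0.05. Sgpp2, Cldn4 and Krt18 were thus above the epithelial markers in all 4 comparisons, with or without Elf3. Without Elf3, Krt7 was at 0.17, -0.15, 0.11 and -0.24, and Krt8 at 0.37, 0.15, -0.17 and -0.17, so the sign of Krt7 in P2 Vangl2 and of Krt8 in P5 Vangl2 mutants turned with that 1 marker. Vnn3 was above the markers at 0.91, 0.20 and 0.70 in the first 3 comparisons and at -0.03 in P5 Ror2 mutants (0.11 without Elf3). This scaling was chosen after the data were seen.

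**Figure D3:**
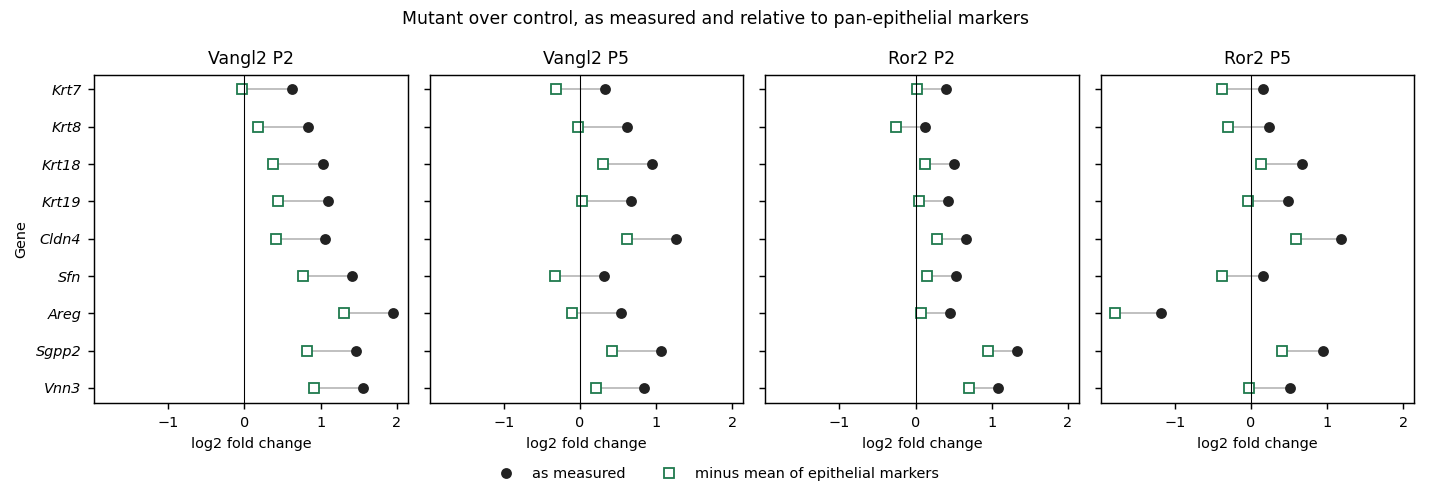
Log2 fold change of each gene (y axis) as measured (filled circles) and after subtracting the mean log2 value of the pan-epithelial markers in each lung (open squares), on 1 shared x axis. The squares of Sgpp2, Cldn4 and Krt18 stay to the right of 0 in all 4 comparisons, and those of Krt7 reach at most 0.02.

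Sums of other cell type lists also differed between groups. In Vangl2 lungs the 6 listed neutrophil markers summed to 2986 to 4865 in controls and 8972 to 12039 in mutants at P2 (5 of 6 called higher), and to 3354 to 4708.5 and 9499 to 24220.4 at P5 (3 of 6 called higher). Club cell markers did not overlap in 3 comparisons, at 123024 to 153172 and 217050 to 245724 for P2 Vangl2, 55394 to 106274 and 176917 to 224539 for P5 Vangl2, and 71002 to 76943 and 127245 to 243023 for P5 Ror2. At P2 in Ror2 lungs control replicate 3 stood out with a neutrophil sum of 27036, against 4910 to 7595 in the other lungs. Mesothelial markers, from cells that also make simple keratins, reached 10581 and 13553 in P2 Vangl2 mutant replicates 1 and 3 but 5774 in replicate 2. The P2 Vangl2 controls were at 5574 to 7512. At P5 these sums were at 2728 to 4835 in Vangl2 controls and 5563 to 7291 in mutants. P5 Ror2 mutant replicate 1 stood out at 8597, against 2569 and 2119 in the other mutants and 2876 and 2820 in 2 controls. Of the defining cells of lung, alveolar markers were abundant, with sums of at least 76357 (type I) and 179113 (type II) in every Vangl2 lung. Alveolar type II markers (3 of 8 called higher) and type I markers (1 of 8) had medians of 0.51 and 0.48 in P2 Vangl2 mutants. Type I sums did not overlap in 3 comparisons, at 86165 to 104874 and 117338 to 144862 for P2 Vangl2, 78945 to 92290.3 and 93508 to 148896 for P2 Ror2, and 84425 to 85305 and 88493 to 102259 for P5 Ror2, while type II sums overlapped in all 4. Multiciliated markers did not overlap at P5, at 3524 to 6733 and 8736 to 9990.2 in Vangl2 lungs and 3691 to 4375 and 5348 to 7958 in Ror2 lungs. For the club, mesothelial, alveolar and multiciliated lists the P5 Ror2 control values rest on 2 controls, because replicate 1 was left out. Basal cell markers were at 258 to 299 and 326 to 519.9 in P2 Vangl2 controls and mutants, at 89.3 to 270.1 in P5 Vangl2 controls and 287 to 1442 in mutants, and at 43.7 to 70.9 and 78.2 to 99.4 in P5 Ror2 lungs, with Krt5 at 0 in some lungs of each table, and no list had a marker at 0 in every lung. In P2 Ror2 lungs the basal sums overlapped, at 201 to 449 in controls and 147 to 464 in mutants. The median log2 fold change of the basal markers there was -1.86. Ly6g, Adgre1 and Chil3 were not listed. The part of these cell types in the differences of the 9 genes was not tested.

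**Figure D4:**
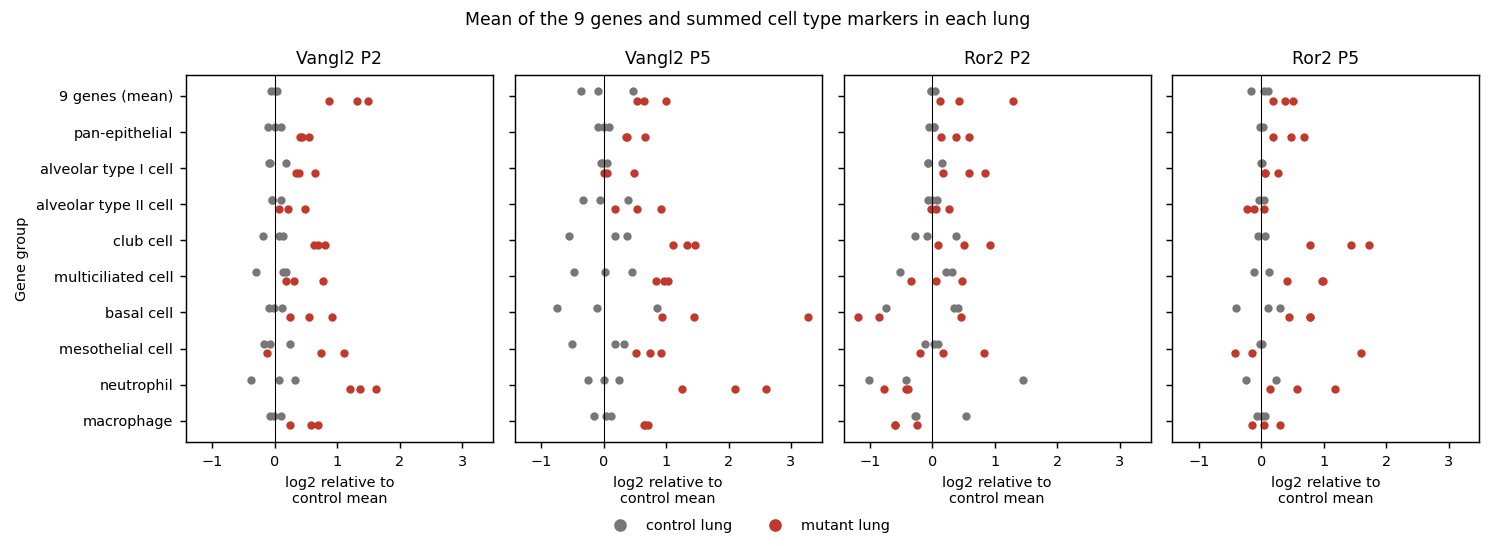
For each lung, the mean of the 9 genes and the summed markers of 9 cell type lists (y axis), as log2 relative to the control mean (x axis, shared). Pan-epithelial sums lie to the right of all controls in each mutant group, and neutrophil sums do so in Vangl2 mutants but not in Ror2 mutants.

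Across the 24 lungs the 4 keratins varied together. For each gene the log2 deviation from its table's mean was taken, so these correlations include the mutant to control difference and share lungs and scaling. Among the 6 keratin pairs r ran from 0.74 (Krt7 and Krt8) to 0.92 (Krt7 and Krt19), and Krt8 and Krt18 gave 0.79. After each group's own mean was removed, the keratin pairs still gave 0.52 to 0.87, while the other 30 pairs ran from -0.27 to 0.78 with a median of 0.31. Cldn4 went with Krt18 (0.91, and 0.75 within groups), and Areg with Sfn (0.72 and 0.65) and with Krt8 (0.72 and 0.73, n = 23 for Areg and Cldn4). Vnn3 was the least tied to the mean of the 9 (r = 0.62), and Krt7 the most (0.91). That mean includes the gene itself, which raises these values, so they cannot be compared with those of genes outside the 9.

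Of 16723 genes tested in all 4 tables, non-members with deviations among the 5 most like the mean of the 9 included Cldn3 (r = 0.95, 23 lungs), BC029214 (0.93), Proser2 (0.92) and Rnase4 (0.92). Cldn3 encodes a tight junction claudin close to Cldn4.

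The pathways around the 9 genes were followed in 7 lists of 119 other genes. These lists were chosen with earlier results of these data known, so their shares beside those of all genes are a description only. In P2 Vangl2 mutants 9 of these rose and 1 fell (limma, adjusted over 17448 genes), or 8.40% against 3.59% of all genes, and the median log2 fold change was 0.27. At P5 in Vangl2 mutants 4 of 119 rose (3.36% against 0.563%), with a median of 0.19. In Ror2 mutants none of 117 was called at P2 (30 at an unadjusted p under 0.05; edgeR also none, 33 unadjusted; 19 by limma without mutant replicate 2) and none of 116 at P5 (38 unadjusted; 14 without mutant replicate 3), with medians of 0.20 and 0.11. The interaction called none at either age (7 and 8 unadjusted, limma). Without control replicate 2 or control replicate 3 the P2 Vangl2 count was 0, without control replicate 1 it was 1, without mutant replicate 2 it was 2 and without mutant replicate 3 it was 32. Leaving out any lung but control replicate 1 took the P5 Vangl2 count to 0, and without that control it was 1.

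Tight junction genes gave 3 of 19 called in P2 Vangl2 mutants, all higher. Cldn3 rose from 2943 ± 224 to 5439 ± 1246 normalized counts (log2 fold change 0.86 ± 0.17, adjusted p = 0.041), Cldn12 from 546 ± 36.2 to 805 ± 17.9 normalized counts (0.56 ± 0.10, adjusted p = 0.033), and Tjp3, a scaffold under the junction, from 438 ± 64.7 to 852 ± 174 normalized counts (0.95 ± 0.18, adjusted p = 0.034). At P5 only the pore-forming claudin Cldn2 passed of the 19, from 17.6 ± 4.88 to 79.7 ± 12.7 normalized counts (2.14 ± 0.33, adjusted p = 0.039). In Ror2 mutants none of 19 passed, and the lowest p-values were those of Tjp1 at P2 (0.40 ± 0.11, adjusted p = 0.20) and Cgn at P5 (0.54 ± 0.09, adjusted p = 0.080).

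None of the 20 other keratins and desmosomal plaque genes passed in the unpaired limma fit of all lungs in any comparison. The list medians were 0.63, 0.71, 0.31 and 0.57 in P2 Vangl2, P5 Vangl2, P2 Ror2 and P5 Ror2 mutants (18 tested in the last). Their unadjusted counts were 8, 12, 5 and 8. The lowest p-values belonged to the desmosomal cadherin Dsg2 (0.80 ± 0.19, adjusted p = 0.058), Perp (1.23 ± 0.22, adjusted p = 0.060, and 0.016 with the replicate block in P5 Vangl2 lungs), Pkp1, which was lower (-2.35 ± 0.51, adjusted p = 0.20), and Ppl (0.76 ± 0.16, adjusted p = 0.11). Pkp1 was near the floor, at 5.66 ± 2.28 normalized counts in P2 Ror2 controls and 0.316 ± 0.547 in mutants. Without mutant replicate 3, Dsg2 passed in P2 Vangl2 and Ppl in P5 Ror2 lungs (limma, adjusted p = 0.0499 and 0.011). Pkp1 passed in P2 Ror2 lungs without mutant replicate 2 (limma, adjusted p = 0.048).

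Among 17 other genes of the injury-associated transitional state, 4 rose and 1 fell in P2 Vangl2 mutants. Lgals3 rose from 1362 ± 119 to 2474 ± 187 normalized counts (0.86 ± 0.11, adjusted p = 0.026), Anxa1 by 0.86 ± 0.13 (adjusted p = 0.030) and the stress gene Nupr1 by 0.96 ± 0.15 (adjusted p = 0.032). The other gene that rose, Sprr1a (2.89), lies outside the rule for named genes and was named after its values were seen. Cyclin D1 (Ccnd1) fell from 4502 ± 478 to 2728 ± 492 normalized counts (-0.73 ± 0.14, adjusted p = 0.040). At P5 Lgals3 (1.61 ± 0.26, adjusted p = 0.048) and Cd24a (0.84 ± 0.14, adjusted p = 0.048) were called higher, and no gene of the list was called lower. Ccnd1 was again lower in every mutant lung, though not called (-0.82 ± 0.21, limma, adjusted p = 0.12). In Ror2 mutants Nupr1 at P2 (0.77 ± 0.10, adjusted p = 0.20) and Itgb4 at P5 (1.04 ± 0.23, adjusted p = 0.12) had the lowest p-values. Among P2 Ror2 lungs Anxa1 and Cd24a were highest in control replicate 3, at 4805 and 7043 normalized counts. That lung also had the highest neutrophil sum (27036), and the part of neutrophils in Anxa1 and Cd24a was not tested. Lgals3 is also abundant in macrophages, whose 5 listed markers summed to 2480 to 2791 in P2 Vangl2 controls and 3101 to 4218 in mutants, and to 2309 to 2773 and 4021 to 4175 at P5; the part of macrophages in its rise was not tested.

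The EGF family list held 1 call of 16, Ereg in P2 Vangl2 mutants, an Areg relative that rose from 10.5 ± 1.85 to 77.3 ± 59.8 normalized counts (2.50 ± 0.54, adjusted p = 0.049). Elsewhere the lowest p-values were for the receptor Erbb3 at P5 in Vangl2 mutants (0.78 ± 0.21, adjusted p = 0.12), the ligand Nrg1 at P2 in Ror2 mutants (1.45 ± 0.31, adjusted p = 0.20) and Rhbdf1, a cofactor of the ADAM17 sheddase, at P5 (0.21 ± 0.07, adjusted p = 0.19). In the list of other 14-3-3 and p53 target genes, 1 of 18 passed, the death receptor Fas in P2 Vangl2 mutants (from 342 ± 28.4 to 782 ± 244 normalized counts, 1.15 ± 0.21, adjusted p = 0.033). The list's medians were 0.08, -0.09, -0.08 and -0.17 in P2 Vangl2, P5 Vangl2, P2 Ror2 and P5 Ror2 mutants. At P5 in Ror2 mutants 7 of the 18 had every mutant lung below every control lung, against 14.3% of all genes, and 1 (Fas) above, and none was called (limma, 6 unadjusted). Fas was also at 0.78 ± 0.18 and 0.75 ± 0.12 in P2 and P5 Ror2 mutants (adjusted p = 0.20 and 0.080), and Zmat3 at -0.39 ± 0.17 in P5 Vangl2 mutants (adjusted p = 0.27).

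In sphingosine metabolism Sphk1, the kinase that makes the phosphate SGPP2 removes, rose in P5 Vangl2 mutants from 183 ± 1.92 to 398 ± 54.6 normalized counts (1.11 ± 0.17, adjusted p = 0.041), the 1 call of 19 there. Its values in P2 Vangl2, P2 Ror2 and P5 Ror2 mutants were 0.79 ± 0.23, 1.00 ± 0.28 and 0.90 ± 0.13 (adjusted p = 0.11, 0.20 and 0.067), and in all 4 comparisons every mutant lung was above every control lung. The list medians lay between -0.02 and 0.06. The 10 pantetheine and coenzyme A genes gave no call, with medians from -0.01 to 0.08; Vnn1, another vanin, was at 0.79 ± 0.20 in P2 Vangl2 mutants (adjusted p = 0.070). The lowest p-values elsewhere were for Pank1 at P5 in Vangl2 mutants (-0.55 ± 0.17, adjusted p = 0.15) and Ppcdc in P2 and P5 Ror2 mutants (0.24 ± 0.12 and 0.37 ± 0.12, adjusted p = 0.32 and 0.21).

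**Figure D5:**
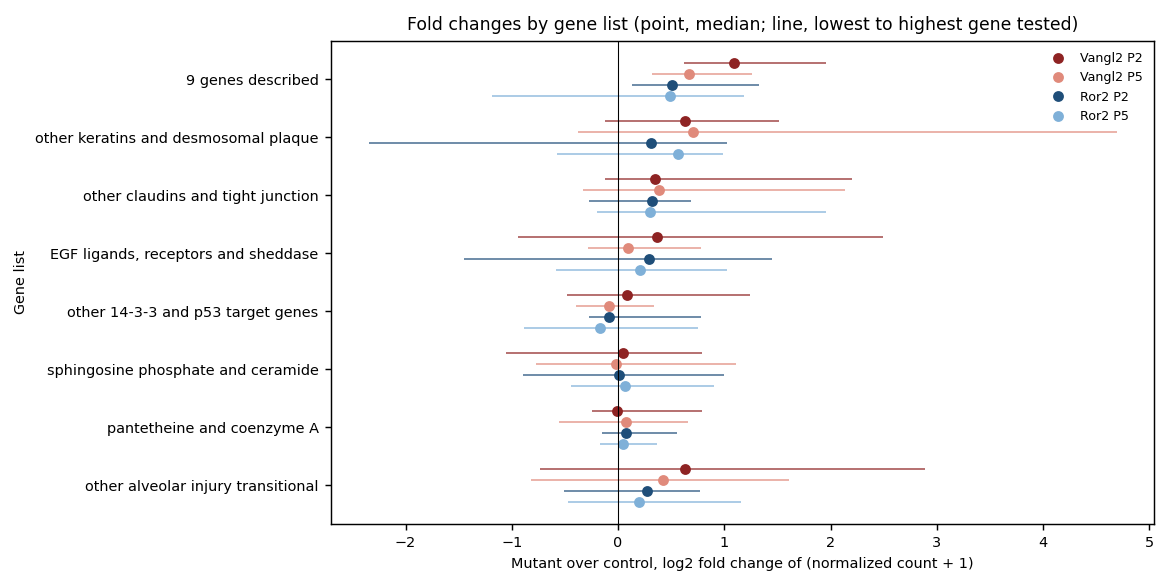
Log2 fold changes (x axis) of the 9 genes and of 7 lists of related genes (y axis), with points at the median and lines from the lowest to the highest gene tested. Keratin and desmosome, tight junction and transitional lists have medians right of 0 in all 4 comparisons, and sphingosine and pantetheine lists have medians near 0.

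In P5 Vangl2 lungs, samples with the same replicate number deviated together (r = 0.38, 0.34 and 0.24), so the fit with the replicate number as a block is given beside the unpaired one. With the block 8.95% of all genes were called (5.47% higher). Within numbered pairs the mutant lung was above its control in 3 of 3 pairs for Krt7, Krt18, Krt19, Cldn4, Areg and Sgpp2, and in 2 of 3 for Krt8, Sfn and Vnn3. The share of all genes with 3 of 3 pairs higher was not computed. Since the 9 genes were chosen on these differences, nothing is read from the pair counts. The 119 related genes gave 17 higher and 3 lower with the block, and Perp passed (adjusted p = 0.016, limma).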

How the data were processed

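RNA-Seq of 24 left lung lobes (8 groups of 3) was deposited as 4 tables of normalized counts, 1 per mutant and age. The submitters' processing notes name mm10 and DESeq2, and the aligner is not given in the sources used here. The deposited values are a signal in which each lung's read counts were divided by a size factor by the authors, not raw counts, so the raw count test was replaced by limma. In 21 of 24 lungs 100% of values came out as whole multiples of 1 read (tolerance 0.02), and in the other 3 that step was too near 1 to be told from whole numbers. The deposited authors' columns of mean, log2 fold change, its SE, test statistic and p-value compare the groups and were not used. Groups followed the sample titles, although 2 mutant groups (Vangl2 at P5, Ror2 at P2) carry a genotype entry for the other of the 2 genes. Lungs of a group are separate samples of unstated litter, so p-values weigh group differences against the spread between these lungs. Sex was not in the fits. Xist, an RNA of female cells, was above 1000 normalized counts in 1 of 3 controls and 2 of 3 mutants in P2 Vangl2. The numbers were 3 and 2 in P5 Vangl2, 1 and 1 in P2 Ror2, and 1 of 2 and 0 of 3 in P5 Ror2. The part of sex was not tested.

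Genes at 1 or more in at least 3 of the 6 lungs were fitted per table with limma 3.58.1 (R 4.3.3, lmFit and eBayes with trend) on log2(normalized count + 1), with p adjusted across every tested gene (Benjamini-Hochberg) and a threshold of 0.05. Fold changes are on that scale, which understates changes of low genes. The mutants were compared at each age by an interaction over 12 lungs. The 9 genes, the 7 lists of related genes and the 9 marker lists were chosen with earlier results of these data known. The text names all 9 genes and, per comparison and list of related genes, up to 4 called genes with the lowest adjusted p, or the gene with the lowest p where none was called. It also names genes from the 5 most correlated with the mean of the 9, of which 1 is not reported here. In each comparison, deviations of same-numbered lungs from their group means were correlated, the replicate number coming from the titles, and all 3 pairs exceeded 0.1 only in the P5 Vangl2 table. Alternatives were a pseudocount of 0.5, no filter, TMM rescaling, the replicate block, each lung left out, the P5 Ror2 control replicate 1 as deposited, and edgeR 4.0.16 (quasi-likelihood) on recovered reads at P2, which called 641 genes in Vangl2 and 0 in Ror2 lungs. The fits were tested on simulated data.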

Additional observations from a re-analysis of the deposited data

How the results depend on the processing

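A pseudocount of 0.5, TMM rescaling, no filter and edgeR moved none of the 9 genes' medians by more than the spread between lungs. The counts of calls depended on single lungs. With each lung left out in turn, genes called ranged from 1 (control replicate 2 or 3) to 2333 (mutant replicate 3) in P2 Vangl2, 0 (mutant replicate 3) to 54 (mutant replicate 2) in P5 Vangl2, 0 to 859 (mutant replicate 2) in P2 Ror2 and 0 (control replicate 2 or mutant replicate 2) to 830 (mutant replicate 3) in P5 Ror2. Each single lung moved the count well away from that of all lungs, except mutant replicate 1 in P2 Vangl2 and, in P2 Ror2, all but control replicate 1 (3 genes) and mutant replicate 2. Related genes called ranged from 0 to 32, 0 to 1, 0 to 19 and 0 to 14 in the same order, and the P5 interaction from 0 to 4. Medians of the 9 ranged from 0.92 to 1.37 (1.365 without mutant replicate 2), 0.47 to 1.10, 0.21 to 0.79 and 0.25 to 0.54. The cause was not tested.

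With the replicate block 1558 genes were called in P5 Vangl2 and 20 related genes, 18 related genes in P2 Vangl2, and 1 gene each in P2 and P5 Ror2. Outside P5 Vangl2 the correlations of same-numbered lungs did not all exceed 0.1 (0.03, 0.21 and 0.12 in P2 Ror2). Whether those lungs were paired is not known. Without a filter 1 related gene was called in P5 Vangl2. With control replicate 1 as deposited, 1 gene was called in P5 Ror2, and Areg was 0.79 in place of -1.19.

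Relative to the pan-epithelial markers, an alternative chosen after the data were seen, the medians were 0.44, 0.0266 and -0.0459 in P2 Vangl2, P5 Vangl2 and P5 Ror2, and 0.64, 0.20 and 0.0925 without Elf3. The log2 fold change of Ror2, Vangl2 P2 comparison, was -0.01 (-0.0778 to 0.0619 with each lung left out), above 0 without control replicate 3 (0.02) or mutant replicate 3. The fits of P5 recovered reads with edgeR were not run, because the read step of 3 lungs was not recovered. With 3 lungs a group, and 2 controls for Cldn4 and Areg in P5 Ror2, small differences were not detectable.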
